A study of Mus musculus with 3 samples.

Results

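Chromatin accessibility was examined at 42 genes of the Wnt signaling pathway in single nuclei of the developing mouse embryo. The genes were taken from a list of pathway members and make up 42 of the 21593 protein-coding genes that were counted. They comprise 19 Wnt ligands, 10 Frizzled receptors, 2 LRP coreceptors, 6 intracellular and nuclear effectors and 5 secreted inhibitors. The data are single-nucleus ATAC-seq (snATAC-seq), in which a transposase cuts open DNA and each sequenced fragment carries the barcode of its nucleus. Wild-type C57BL/6JRj embryos were taken at 3 stages, E12.5, E13.5 and, nearest to birth, E15.5, where E counts embryonic days, with 1 library per stage. The nuclei were sorted from frozen embryo sections and come from a mixture of cell types. Because there is 1 library per stage, stage and library cannot be told apart, and the libraries served as replicates only for differences between clusters of nuclei.

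Wnt ligands are secreted, lipid-modified proteins that bind Frizzled receptors at the cell surface. With the coreceptors Lrp5 or Lrp6, this binding lets beta-catenin (Ctnnb1) escape degradation, enter the nucleus and join TCF/LEF factors at target genes. Other ligands, of which Wnt5a and Wnt11 are the classical examples, act largely without beta-catenin and guide cell polarity and movement. In the embryo the pathway patterns the neural tube and limbs, maintains progenitors and shapes mesenchyme, and it is restrained outside the cell by proteins such as those of the Dkk and Sfrp families. Open chromatin at a gene marks DNA that regulatory proteins can reach, and is not itself a measure of RNA or protein.

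Each gene was counted by a pair of measures of unique fragments. The first, the gene window, spans the gene body plus 2 kb upstream, and the second, the promoter, runs from 1000 bases before to 100 bases after the gene start. Fragments were summed per cluster and library over the authors' own clusters of the nuclei, without clusters 2 and 4, and are given as counts (CPM) per 1000000 of all fragments in gene windows or, for promoters, of all fragments in promoters. Clusters 0, 1, 3, 5 and 9 had at least 10 nuclei in all 3 libraries and clusters 6, 7, 8 and 10 in the E13.5 and E15.5 libraries, which gave 23 sums in 9 clusters. Ranges and orders are given over these sums. Values listed for a cluster follow the order of stage. The libraries held 153, 970 and 756 nuclei with 9402554, 87687839 and 53120243 fragments in all, so the E12.5 sums rest on 10 to 25 nuclei each. Fragments in gene windows numbered 344651 to 8625628 per sum, and the 3 lowest sums were those of cluster 1 at E12.5 (344651), cluster 5 at E15.5 (354431) and cluster 5 at E12.5 (389209). Marker genes placed cluster 0 as inhibitory neuron-like, cluster 6 as neuron-like with glutamatergic markers, cluster 9 as neural progenitor-like, cluster 1 as mesenchyme-like, clusters 5 and 11 as erythroid-like and cluster 10 as skeletal muscle-like, although 4 of 6 heart markers and 3 of 5 sensory neuron markers were also raised 1.5-fold in cluster 10, and 4 of 6 neural progenitor markers in cluster 6. Clusters 3, 7 and 8 stayed unnamed: 6 of 6 mesenchyme markers were raised in cluster 3 but its leading genes were Hoxc11 and the vomeronasal receptor gene Vmn1r42, cluster 7 carried epithelial, chondrocyte and Schwann cell markers together, and cluster 8 carried hepatocyte, white blood cell and endothelial markers together. Cluster 3 also had a low share of its fragments in promoters, 5.99% to 7.44% against 7.77% to 19.7% in the other tested sums. Cluster 11 had 1, 35 and 7 nuclei and is given as values only.

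Most of the pathway genes differed in accessibility between clusters. In gene windows 30 of 42 genes differed between the 9 clusters (edgeR quasi-likelihood F test, Benjamini-Hochberg adjusted p under 0.05), where 37.5% of all 20393 genes tested did. In promoters 27 of 42 did, where 44% of 16569 genes tested did. All 42 genes passed the low-count filter in both measures. Differences were called in both measures for 26 genes, in windows alone for Dkk3, Wnt2, Wnt3a and Wnt8b, in promoters alone for Wnt2b, and in neither for Ctnnb1, Fzd6, Fzd9, Lrp6, Tcf7, Wnt1, Wnt10b, Wnt16, Wnt5b, Wnt6 and Wnt9b. By role, the windows of 12 of 19 ligands, 8 of 10 Frizzled receptors, 1 of 2 coreceptors, 4 of 6 effectors and 5 of 5 inhibitors differed, and the promoters of 10, 8, 1, 4 and 4 of them. The clusters were made by the authors with these same nuclei, so the tests describe the clusters, and no p-value covers more than the spread over libraries. In promoters the fit used a spread shared over genes for every gene. A very small promoter p therefore does not measure how closely 1 gene's own libraries agree.

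**Figure D1:**
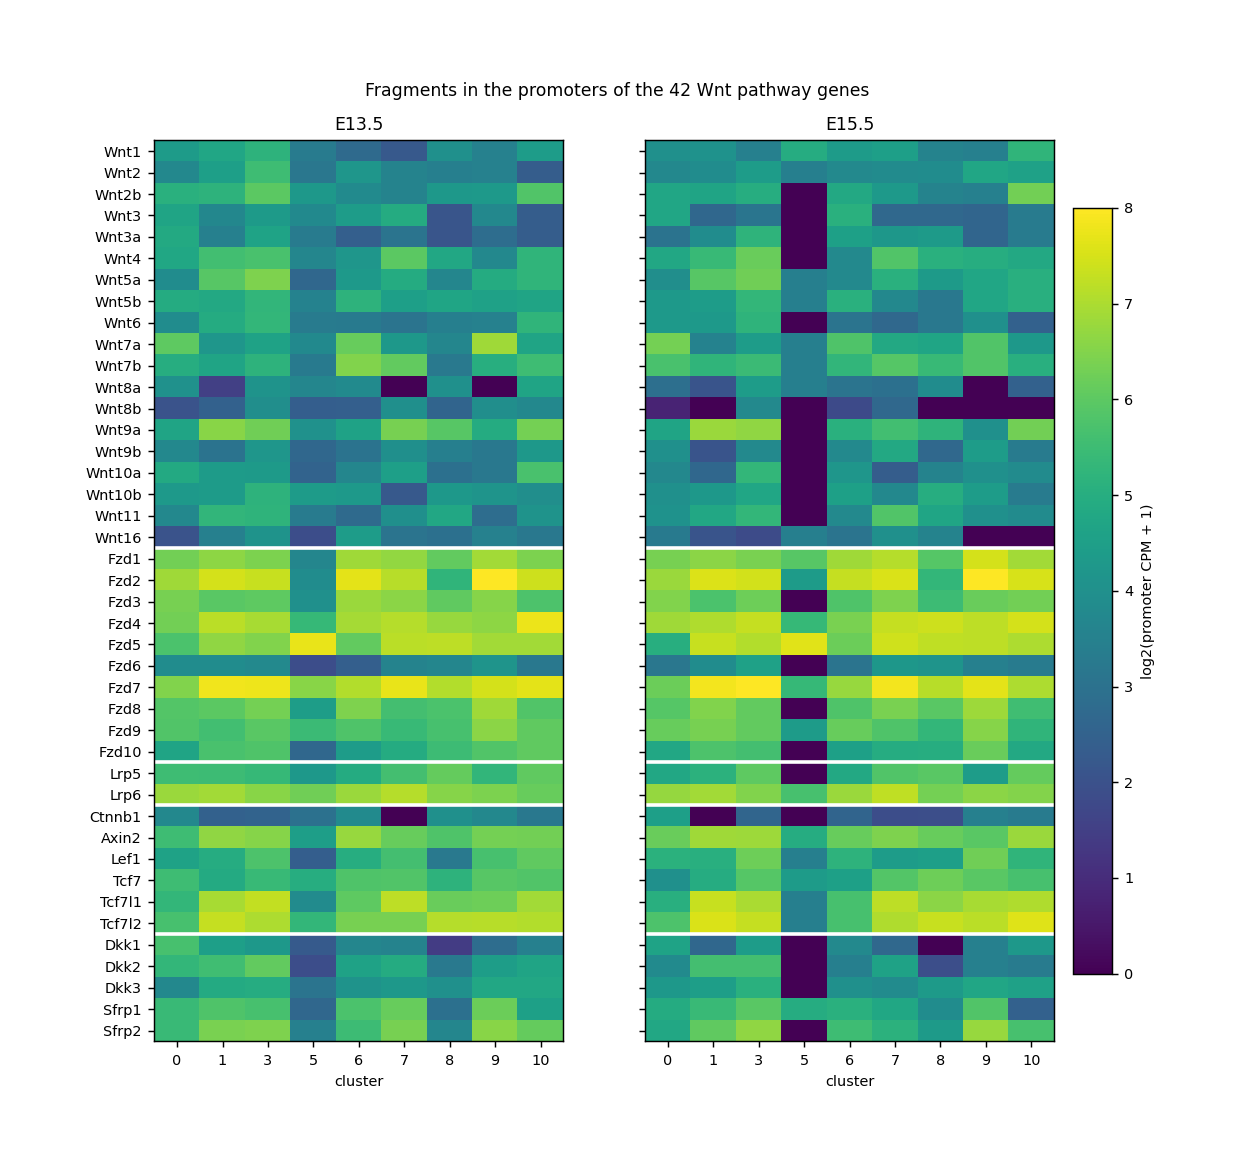
Heatmap of promoter accessibility, on a log2(CPM + 1) color scale, of the 42 genes (rows, with white lines between the roles) in the 9 tested clusters (columns) of the E13.5 and E15.5 libraries. Most Frizzled promoters are bright outside cluster 5 and Fzd6 is dim throughout, while Fzd5 is bright in cluster 5 with 210.4 and 200.1 CPM.

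Promoter levels by role are a description with no test. With all nuclei of a library pooled, the median Frizzled promoter lay at percentile 78.5, 71.9 and 79.5 of all promoters, in order of stage, and the median effector promoter at 69.4, 67.2 and 69.9. The coreceptors lay at percentile 70.3, 71.1 and 73.8 and the secreted inhibitors at 53.7, 53.9 and 50.9. The median ligand promoter lay at percentile 45.0, 47.3 and 46.6. Promoters all have the same length here, so gene length does not enter these levels. The annotated start of Ctnnb1 lies away from its most accessible bin. Its promoter value, which enters the effector median, may therefore not describe its main start. Of the 42 genes, 4 (Wnt8a, Wnt8b, Wnt16 and Ctnnb1) had at most 3 promoter fragments in most of their sums, and their promoter values are thin.

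Among the ligands, Wnt5a and Wnt9a were more accessible in mesenchyme-like nuclei than in neurons. Wnt5a, the classical beta-catenin-independent ligand needed for outgrowth of limbs and body axis, had 78.3, 84.5 and 70.7 CPM in its window in the mesenchyme-like cluster 1. The 20 sums of the other clusters lay between 5.14 and 77 CPM with a median of 39.6. Cluster 1 was called higher than the mean of the other 8 clusters (log2 difference 1.32, SE 0.18, adjusted p = 1.10e-05), and the call held with each library left out in turn. Its promoter gave 108, 59.6 and 59.8 CPM in cluster 1 and 57.6, 86 and 76.2 CPM in cluster 3, and the sums of the other 7 clusters all lay lower. Both were called (log2 difference 1.60, SE 0.29, adjusted p = 6.53e-06 and log2 difference 1.74, SE 0.29, adjusted p = 9.35e-07), of which the first was lost without the E13.5 library (1.66) and the second was lost without the E13.5 library (1.52). Erythroid-like cluster 5 had the lowest Wnt5a window values, 5.14, 11.6 and 8.46 CPM (log2 difference -2.05, SE 0.28, adjusted p = 5.13e-07), and this call held with each library left out in turn.

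Wnt9a, a ligand of joint and skeletal development, was also open in the muscle-like cluster. Its window held 128 and 124 CPM in the skeletal muscle-like cluster 10, above all sums of the other clusters, which lay between 20.6 and 87.4 CPM with a median of 48.5 (log2 difference 1.38, SE 0.17, adjusted p = 3.66e-07). That call held with each library left out in turn. At the promoter the mesenchyme-like cluster 1 stood highest at E13.5 and E15.5, with 80.7, 94.5 and 109.9 CPM over the 3 stages (log2 difference 1.40, SE 0.23, adjusted p = 1.36e-07), and the call was lost without the E15.5 library (1.12). Cluster 10 gave 79.9 and 77.2 CPM there and was not called (log2 difference 0.91, SE 0.31, adjusted p = 0.0709). Neuronal clusters 0 and 6 gave 31.8, 24.7 and 24.7 CPM and 23.4 and 32.5 CPM, and cluster 1 exceeded their mean (log2 difference 1.97, SE 0.30, adjusted p = 3.61e-09), a call that held with each library left out in turn.

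Wnt7a and Wnt7b, closely related ligands of the developing nervous system, were called lower in the mesenchyme-like cluster than in the mean of the neuronal clusters 0 and 6. The Wnt7a promoter gave 87.6, 114 and 56 CPM in the neural progenitor-like cluster 9, 63.6, 63.4 and 79.1 CPM in cluster 0 and 70.2 and 55.1 CPM in cluster 6. In the mesenchyme-like cluster 1 it gave 40.4, 17.4 and 10.7 CPM and in erythroid-like cluster 5 27.3, 12.9 and 10.004 CPM. Cluster 9 was called higher (log2 difference 1.64, SE 0.30, adjusted p = 9.21e-06), although the call was lost without the E13.5 library (1.01), and cluster 1 was lower than the neuronal mean (log2 difference -2.06, SE 0.39, adjusted p = 5.99e-06), which was lost without the E15.5 library (-1.72). The Wnt7b window reached 134, 122 and 165 CPM in cluster 9 and 159 and 113 CPM in cluster 6, but also 115 and 149 CPM in the mixed cluster 7, and all 3 clusters were called higher. The call for cluster 9 was lost without the E15.5 library (0.65), that for cluster 6 was lost without the E13.5 library (0.51) and the E15.5 library (1.05) and that for cluster 7 was lost without the E13.5 library (0.91) and the E15.5 library (0.48). It was lowest in clusters 5 and 8, at 43.7, 59.1 and 53.6 CPM and 47.8 and 46.7 CPM, of which the first call was lost without the E13.5 library (-0.86) and the second was lost without the E13.5 library (-0.96) and the E15.5 library (-0.99). Cluster 1 was lower than the neuronal mean in the Wnt7b window (log2 difference -0.68, SE 0.20, adjusted p = 0.0224), and that call was lost without the E13.5 library (-0.56) and the E15.5 library (-0.72).

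The promoters of Wnt9a and Wnt7a are shown because they carry the opposite patterns, mesenchyme for Wnt9a and nervous system for Wnt7a, on sequences of a similar kind. They are the RefSeq promoters of build mm10 (GRCm38.p6), 250 bases before to 50 after the gene start, read along the gene's strand, with CG dinucleotides in capitals. Wnt9a lies at chr11:59306680-59306979, plus strand, has 83.3% G and C and holds 58 CG dinucleotides. Wnt7a lies at chr6:91411304-91411603, minus strand, has 76% G and C and holds 42 CG dinucleotides.
Wnt9a promoter: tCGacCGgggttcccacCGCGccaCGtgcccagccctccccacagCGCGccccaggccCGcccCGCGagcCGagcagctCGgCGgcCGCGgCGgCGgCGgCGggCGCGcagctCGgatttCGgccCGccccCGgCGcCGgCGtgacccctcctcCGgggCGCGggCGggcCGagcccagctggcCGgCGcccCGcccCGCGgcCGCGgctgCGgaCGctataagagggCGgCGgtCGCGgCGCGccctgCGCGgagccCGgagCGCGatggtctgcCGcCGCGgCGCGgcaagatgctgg
Wnt7a promoter: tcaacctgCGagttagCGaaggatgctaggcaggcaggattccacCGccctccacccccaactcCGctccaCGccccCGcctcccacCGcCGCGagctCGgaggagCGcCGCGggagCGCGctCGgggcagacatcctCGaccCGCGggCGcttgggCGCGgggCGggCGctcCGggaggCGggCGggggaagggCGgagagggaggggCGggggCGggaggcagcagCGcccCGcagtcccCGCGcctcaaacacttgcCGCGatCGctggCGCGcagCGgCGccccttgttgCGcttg

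The table of RefSeq promoters used here matched 30 of the 42 genes, with 39 entries. The 18 ligand entries had a median G and C content of 71% with a median of 28 CG dinucleotides, and the 6 Frizzled entries 74.2% and 35. All 32851 promoters in the table had medians of 52.7% and 7. A set of 3 short motifs was searched on both strands of these 300 bases. The letters AGATAA are bound by GATA factors. The letters CTTTGAT are the core bound by TCF/LEF factors. The palindrome CAGCTG is an E-box bound by muscle and neural bHLH factors. They occurred in 11.2%, 3.73% and 16.3% of all promoters and in 10.3%, 5.13% and 10.3% of the 39 entries. The TCF/LEF letters were found in promoters of Wnt11 and Wnt5b, the GATA letters in those of Fzd1, Lef1, Tcf7l2 and Wnt8b, and the E-box letters in those of Fzd10, Lef1, Tcf7 and Wnt9a. The motifs do not overlap each other in sequence, and a match is a description of the letters only.

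Among the further ligands, Wnt3, Wnt11, Wnt2 and Wnt2b were called higher in particular clusters. Wnt3, which acts in limb and nervous system development, had 71.1, 71.2 and 92.1 CPM in the window in cluster 0 and 54.5, 58.8 and 106 CPM in cluster 9, against 26.1, 46.6 and 26.8 CPM in cluster 1. Cluster 0 was called higher (log2 difference 0.83, SE 0.19, adjusted p = 0.00317), and the call was lost without the E13.5 library (0.90) and the E15.5 library (0.69). Cluster 9 was called higher as well (log2 difference 0.71, SE 0.21, adjusted p = 0.0333), and that call was lost without the E13.5 library (0.87) and the E15.5 library (0.34). Wnt11, the other classical beta-catenin-independent ligand, had 162, 85.1 and 79.4 CPM in cluster 1 and 63.4 and 108 CPM in cluster 7. Both clusters were called higher (log2 difference 0.96, SE 0.17, adjusted p = 3.28e-04 and log2 difference 0.81, SE 0.20, adjusted p = 0.0241), the first of which was lost without the E13.5 library (1.01) and the second was lost without the E13.5 library (1.09) and the E15.5 library (0.41). Wnt2, a ligand of lung and vascular mesenchyme, was called higher in cluster 3 with 38.3, 39.7 and 50.8 CPM (log2 difference 0.85, SE 0.22, adjusted p = 0.0216), and the call was lost without the E13.5 library (0.89) and the E15.5 library (0.79). The promoter of its relative Wnt2b gave 55.3 and 77.2 CPM in cluster 10, the highest of the clusters at E15.5 but not at E13.5 (log2 difference 1.51, SE 0.39, adjusted p = 0.0055), a call that was lost without the E13.5 library (2.70) and the E15.5 library (1.25).

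Cluster 7 stood out for 2 further ligands. Wnt4, a ligand of kidney and reproductive tract epithelium, gave 62 and 77.6 CPM in its window there (log2 difference 0.84, SE 0.22, adjusted p = 0.0417), and the other sums lay between 24.8 and 95.7 CPM with a median of 41.6. Wnt8b, a ligand of the dorsal forebrain, gave 49.9 and 32.8 CPM there (log2 difference 1.38, SE 0.32, adjusted p = 0.0176) and lay between 0 and 31.9 CPM with a median of 13.9 elsewhere. The Wnt4 call was lost without the E13.5 library (0.92) and the E15.5 library (0.74) and the Wnt8b call was lost without the E13.5 library (1.34) and the E15.5 library (1.55), and either omission leaves cluster 7 with 1 sum. Of the 36 E13.5 nuclei in cluster 7, 11 shared at least 10% of their fragments with another barcode, and with 1 barcode kept per such group both differences were still called. Skeletal muscle-like cluster 10 was called higher for Wnt10a, a ligand of teeth and skin appendages, with 91.9 and 40.3 CPM (log2 difference 1.17, SE 0.25, adjusted p = 0.00166), and for Wnt8a, a ligand of the early primitive streak, with 26.1 and 16.1 CPM (log2 difference 1.31, SE 0.34, adjusted p = 0.0107). The first call was lost without the E13.5 library (0.44) and the second was lost without the E13.5 library (0.75) and the E15.5 library (1.69). The Wnt8a promoter was at 0 fragments in all 3 sums of cluster 9, where 3 fragments would be 26.3, 6.22 and 15.3 CPM. The test called this lower (adjusted p = 0.0332), but the call was lost without the E12.5 library (-5.72) and the E15.5 library (-5.11), fitted values that depend on the prior count, and it was also lost with DESeq2. Without the E13.5 library this promoter did not pass the low-count filter. Cluster 1 gave 0, 1.83 and 3.2 CPM there, from 0, 2 and 3 fragments.

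Wnt3a, which maintains stem and progenitor cells through beta-catenin and is classically a gene of the primitive streak and dorsal neural tube, was one of 2 members called higher in the erythroid-like cluster 5. Its window gave 38.5, 90.3 and 59.2 CPM there and between 21.3 and 66.5 CPM with a median of 37.3 in the 20 other sums (log2 difference 0.71, SE 0.23, adjusted p = 0.0148), and the call was lost without the E13.5 library (0.05). At E12.5, with 10 nuclei, cluster 5 lay below clusters 0, 3 and 9, and the groups overlapped. Its promoter gave 13.7, 9.12 and 0 CPM there and was not called (log2 difference -0.29, SE 0.63, adjusted p = 0.771). The rule described next singled out a stretch of 300 bases in an intron, 29.5 kb downstream of the gene start. It had 10.3, 47 and 45.1 fragment ends per 1000000 fragments in gene windows (end CPM) in cluster 5 in order of stage, of which the last 2 rest on 405 and 16 ends. The highest of the other 8 clusters gave 1.92 at E13.5 and 1.77 at E15.5. These 300 bases held 26.1% and 38.1% of all fragment ends of the Wnt3a window in cluster 5 at the later stages. Outside them cluster 5 had 133 and 73.4 end CPM, and the other clusters 42.5 to 132 at E13.5 and 67.1 to 111 at E15.5. Cluster 11, also erythroid-like, had 0 ends there at E13.5, where 3 ends would be 6.41 end CPM.

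The stretch was found by a rule applied after the values were seen, so its levels are a description with no test. The rule asked for 500-base bins over 1 kb from the gene start with at least 10 end CPM in 1 cluster at both E13.5 and E15.5 and at least 3 times the highest of the other clusters, and it returned 5 stretches in 4 of the 42 genes. All 5 lie in introns. The sequences of 3 are shown because they are the places in ligand and effector genes that the rule singled out, 1 per gene. They are read from mm10 (GRCm38.p6) along the gene's strand, with AGATAA or its reverse complement in capitals. The Wnt3a region, at chr11:59261113-59261412, minus strand, holds that motif at 1 place.
Wnt3a intronic region: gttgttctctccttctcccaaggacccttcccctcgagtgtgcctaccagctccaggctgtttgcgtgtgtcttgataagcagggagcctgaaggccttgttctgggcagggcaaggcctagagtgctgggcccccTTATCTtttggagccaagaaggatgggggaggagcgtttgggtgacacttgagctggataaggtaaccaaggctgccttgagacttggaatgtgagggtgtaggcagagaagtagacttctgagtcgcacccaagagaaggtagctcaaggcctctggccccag

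The other 2 shown belong to nuclear effectors. Tcf7l2 had 2 such stretches, 124.2 and 125.6 kb downstream of its start, both open in erythroid-like cluster 5. The first, at chr19:55865830-55866129, plus strand, gave 10.3, 20.4 and 39.5 end CPM in cluster 5 and at most 5.32 and 2.95 in the other clusters at E13.5 and E15.5. Cluster 11 gave 19.2 there at E13.5. The second stretch gave 5.14, 14.6 and 11.3 end CPM in cluster 5, the last from 4 ends. The other tested clusters gave at most 2.79 and 4.51 there at E13.5 and E15.5. Cluster 11 had 0 ends in the second stretch at E13.5. Each Tcf7l2 stretch holds AGATAA at 1 place. The Tcf7l1 stretch, 58.6 kb downstream of its start at chr6:72730470-72730769, minus strand, was open in the neural progenitor-like cluster 9, with 15.4, 13.6 and 15.8 end CPM against at most 3.72 and 3.88 in the other clusters at E13.5 and E15.5. It holds no AGATAA and 1 CAGCTG. The last of the 5 stretches, 14 kb into the inhibitor gene Sfrp1, was also open in cluster 9, with 5.59, 19.6 and 16.9 end CPM.
Tcf7l2 intronic region: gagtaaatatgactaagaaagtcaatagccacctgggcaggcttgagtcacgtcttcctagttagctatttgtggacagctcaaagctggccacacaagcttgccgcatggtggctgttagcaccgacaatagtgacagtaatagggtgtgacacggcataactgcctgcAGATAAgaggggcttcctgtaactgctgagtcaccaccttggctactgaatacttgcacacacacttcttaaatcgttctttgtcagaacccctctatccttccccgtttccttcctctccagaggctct
Tcf7l1 intronic region: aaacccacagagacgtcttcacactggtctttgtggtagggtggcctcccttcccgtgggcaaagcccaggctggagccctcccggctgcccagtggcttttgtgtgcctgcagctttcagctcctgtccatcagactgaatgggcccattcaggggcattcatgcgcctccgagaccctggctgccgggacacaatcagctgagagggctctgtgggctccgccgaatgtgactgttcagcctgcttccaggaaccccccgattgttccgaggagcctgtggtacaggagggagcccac

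**Figure D2:**
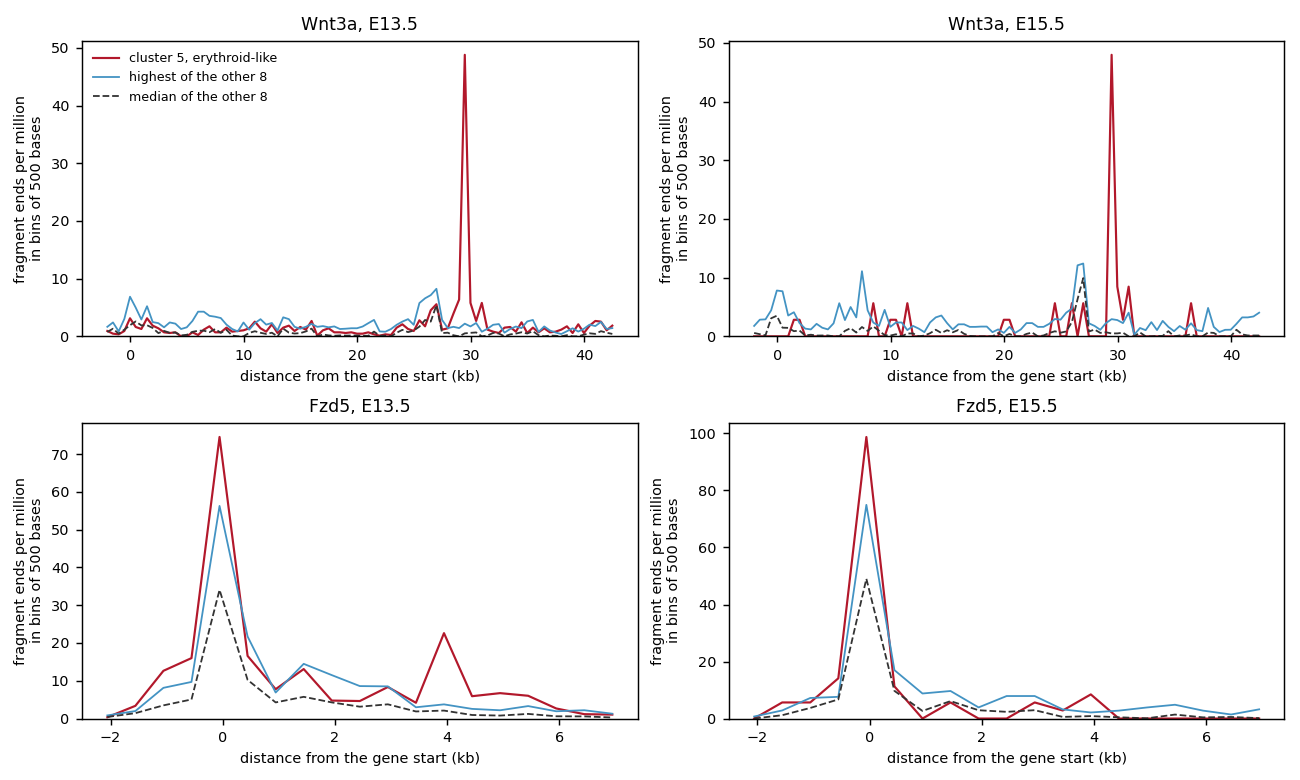
Fragment ends per 1000000 fragments in gene windows (end CPM) in 500-base bins along Wnt3a and Fzd5 (x axis, distance from the gene start in kb) in the E13.5 and E15.5 sums of cluster 5 and, for comparison, the highest and the median of the other 8 clusters. In Wnt3a the bin 29.5 kb into the gene rises in cluster 5, and in Fzd5 cluster 5 lies above the others at the gene start and, relative to the highest of them, most in a bin 3.94 kb downstream. The E15.5 value of that Fzd5 bin rests on 3 ends.

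Frizzled genes encode the receptors that bind Wnt ligands, and one of them, Fzd2, had the smallest p of the 42 genes in promoters (edgeR F test, adjusted p = 7.42e-52). Its promoter gave 219, 263 and 305 CPM in the neural progenitor-like cluster 9 and 349.8, 177 and 189.9 CPM in cluster 1. Erythroid-like cluster 5 gave 13.7, 14 and 20.01 CPM, and the E13.5 value was 14 CPM (95% interval 9.12 to 20.4). Cluster 8 gave 36.7 and 38.6 CPM, so clusters 5 and 8 lay below every other sum. Cluster 5 was called lower (log2 difference -3.16, SE 0.27, adjusted p = 2.51e-28), as was cluster 8 (log2 difference -1.78, SE 0.25, adjusted p = 1.71e-09), and cluster 9 was called higher (log2 difference 1.36, SE 0.16, adjusted p = 3.49e-14). All 3 calls held with each library left out in turn. Both neuronal clusters were open as well, at 84.8, 116 and 109.6 CPM in cluster 0 and 202 and 158 CPM in cluster 6, and cluster 9 was called higher than their mean (log2 difference 0.88, SE 0.18, adjusted p = 1.77e-04), a call that was lost without the E13.5 library (1.02) and the E15.5 library (0.70).

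Fzd5, a receptor of eye and gut development, was the 1 receptor called higher in the erythroid-like cluster 5. Its promoter gave 137, 210.4 and 200.1 CPM in the erythroid-like cluster 5 and 84.8, 52.6 and 31.2 CPM in the inhibitory neuron-like cluster 0. Cluster 6 gave 67.2 and 72.6 CPM, and the other 6 clusters lay between 88.9 and 193 CPM, so cluster 5 lay above them at E13.5 and E15.5 but not at E12.5. Cluster 11 gave 284 CPM at E13.5, the highest of these sums, from 35 nuclei and without a test. Cluster 5 was called higher (log2 difference 1.01, SE 0.16, adjusted p = 2.38e-08) and cluster 0 lower (log2 difference -1.64, SE 0.21, adjusted p = 3.08e-13), of which the first was lost without the E13.5 library (0.47) and the second held with each library left out in turn. In the window cluster 5 gave 105, 106 and 79 CPM (log2 difference 1.10, SE 0.19, adjusted p = 1.77e-05), and this call held with each library left out in turn. The 500-base bin at its gene start had 86.6 end CPM in cluster 5 and 13.4 in cluster 0, as means of the E13.5 and E15.5 sums. In that bin cluster 5 had 74.5 and 98.7 end CPM at E13.5 and E15.5, against at most 56.3 and 75.0 in the other clusters. A bin 3.94 kb downstream had 22.6 and 8.46 in cluster 5, the second from 3 ends, against at most 3.75 and 2.13. Its RefSeq promoter, at chr1:64737701-64738000, minus strand in mm10, is shown as the place of the gene-start difference, with CG dinucleotides in capitals. It has 75.7% G and C with 38 CG dinucleotides, and holds no AGATAA.
Fzd5 promoter: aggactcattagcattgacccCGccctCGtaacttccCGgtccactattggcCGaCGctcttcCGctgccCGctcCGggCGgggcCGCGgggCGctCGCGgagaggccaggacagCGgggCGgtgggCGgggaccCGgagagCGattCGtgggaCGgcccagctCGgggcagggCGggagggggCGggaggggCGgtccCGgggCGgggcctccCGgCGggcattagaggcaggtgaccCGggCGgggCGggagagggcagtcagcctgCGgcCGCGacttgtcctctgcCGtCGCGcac

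Several further receptors were called higher in the neural progenitor-like cluster. Fzd8, a receptor of the forebrain and kidney, had 86.7, 97.5 and 88 CPM in its window in cluster 9, above all other sums, which lay between 2.82 and 62.7 CPM with a median of 35.3. The difference was called (log2 difference 1.43, SE 0.20, adjusted p = 3.30e-06) and held with each library left out in turn. Fzd10, found in the dorsal neural tube, had 36.4, 28.1 and 20.3 CPM in the window there (log2 difference 1.004, SE 0.27, adjusted p = 0.0186), a call that was lost without the E12.5 library (0.93), the E13.5 library (0.94) and the E15.5 library (1.11). The promoter of Fzd1, a receptor of the nervous system and bone, gave 70.1, 118 and 178 CPM in cluster 9 (log2 difference 0.80, SE 0.22, adjusted p = 0.0103) and 0, 11.8 and 60.02 CPM in cluster 5 (log2 difference -2.51, SE 0.32, adjusted p = 2.74e-13). The cluster 9 call for Fzd1 was lost without the E13.5 library (0.73) and the E15.5 library (0.59), and the cluster 5 call was lost without the E13.5 library (-1.49). The window of Fzd9, a receptor of hippocampus and bone, gave 35, 40.04 and 37.2 CPM in cluster 9 and was called higher there (log2 difference 0.92, SE 0.23, adjusted p = 0.0115), but that call was lost without the E13.5 library (0.82) and the E15.5 library (1.10) and the test over all clusters did not pass for Fzd9 in windows (adjusted p = 0.0634) or promoters (adjusted p = 0.107).

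Fzd7, a receptor of mesoderm and stem cells, had promoter values of 202, 225 and 230.5 CPM in cluster 1 and 235, 220.4 and 262 CPM in cluster 3. It was called lower in cluster 0 at 127, 88.1 and 72.6 CPM (log2 difference -1.002, SE 0.16, adjusted p = 9.61e-08) and in cluster 5 at 68.3, 94.5 and 40.02 CPM (log2 difference -0.84, SE 0.18, adjusted p = 3.67e-05), and the cluster 0 values overlapped those of cluster 6. The cluster 0 call was lost without the E15.5 library (-0.84), and the cluster 5 call held with each library left out in turn. Fzd3, a receptor of axon guidance, had 94.2, 65.7 and 84.8 CPM in its window in cluster 0 (log2 difference 0.64, SE 0.19, adjusted p = 0.0335) and a promoter low in cluster 5, at 13.7, 15 and 0 CPM (log2 difference -2.31, SE 0.34, adjusted p = 5.07e-10). Of these the window call was lost without the E12.5 library (0.50), the E13.5 library (0.95) and the E15.5 library (0.61), and the promoter call held with each library left out in turn. Fzd4, a receptor of vessels, had a promoter higher in cluster 10 than in the other clusters at both stages, 217 and 177 CPM (log2 difference 0.87, SE 0.19, adjusted p = 3.35e-04), and that call was lost without the E13.5 library (0.61). Of the Fzd4 window, 35.9% overlaps the window of Tmem135, and the shared part takes in the Fzd4 promoter. Both measures of Fzd4 are therefore shared with Tmem135, and the promoter call cannot be assigned to 1 of these genes. Fzd6 differed in neither test over all clusters (adjusted p = 0.26 in windows and 0.284 in promoters), with promoter values of at most 22.9 CPM. It was called lower in cluster 5 in both measures, with 7.71, 19 and 14.1 CPM in the window (log2 difference -0.85, SE 0.30, adjusted p = 0.0319) and 0, 2.68 and 0 CPM at the promoter (log2 difference -2.04, SE 0.85, adjusted p = 0.047). The window call was lost without the E12.5 library (-0.64), the E13.5 library (-1.40) and the E15.5 library (-0.79), and the promoter call was lost without the E13.5 library (-5.09) and the E15.5 library (-1.83).

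**Figure D3:**
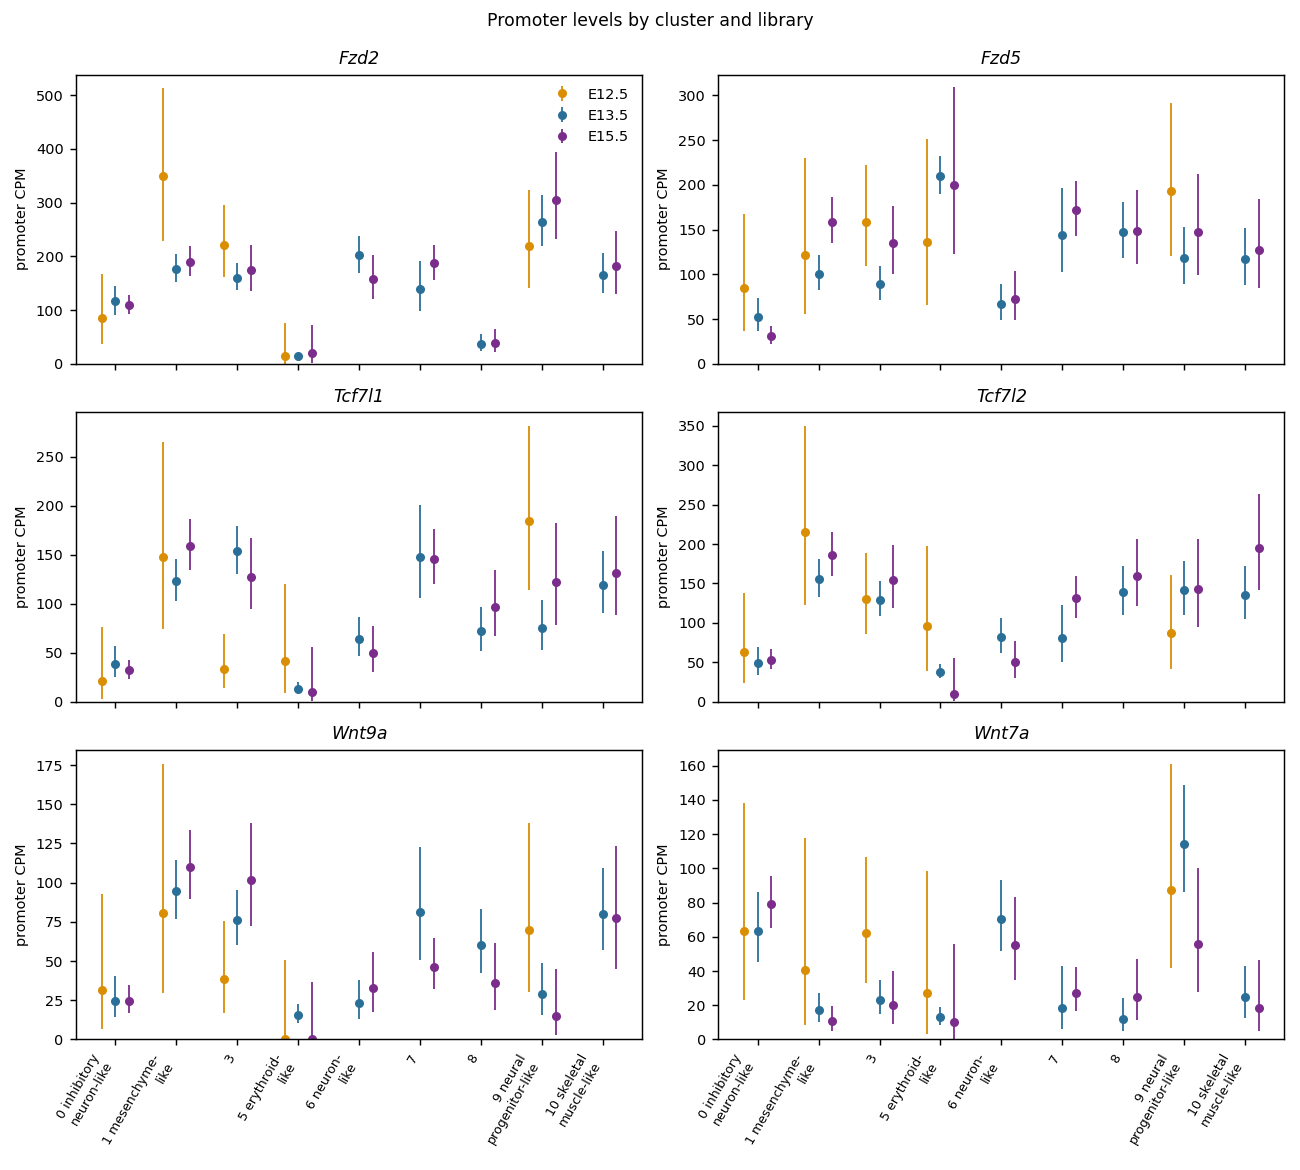
Promoter accessibility in CPM of Fzd2, Fzd5, Tcf7l1, Tcf7l2, Wnt9a and Wnt7a in each tested cluster (x axis), 1 point per library with its exact 95% Poisson interval. Fzd2 is lowest in clusters 5 and 8, Fzd5 is high in cluster 5 and low in cluster 0, and Wnt9a and Wnt7a differ in opposite directions between cluster 1 and clusters 0 and 6.

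Of the 2 coreceptors, Lrp5 differed between clusters and Lrp6 did not pass the test. The Lrp5 window gave 246 and 301 CPM in the skeletal muscle-like cluster 10 (log2 difference 0.83, SE 0.19, adjusted p = 0.00331) and 97.3, 138 and 124 CPM in cluster 0 (log2 difference -0.56, SE 0.18, adjusted p = 0.0465). The first call was lost without the E13.5 library (0.99) and the E15.5 library (0.64), and the second was lost without the E12.5 library (-0.42), the E13.5 library (-0.70) and the E15.5 library (-0.56). Its most accessible 500-base bin lay 4.99 kb downstream of the gene start, with 31.0 end CPM in cluster 10 and a median of 9.97 over the clusters. Lrp6, the other coreceptor, passed the test over all clusters neither in its window (adjusted p = 0.93) nor in its promoter (adjusted p = 0.0614). Its promoter gave 54.7, 75.7 and 50.02 CPM in cluster 5, the lowest of the tested sums at E12.5 and E15.5.

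Among the effectors, Tcf7l1, Tcf7l2, Axin2 and Lef1 differed between clusters in both measures. Tcf7l1, which mostly represses targets in the absence of signal, and Tcf7l2, the TCF of gut and brain, both had less accessible promoters in the inhibitory neuron-like cluster than in the mean of the others. The Tcf7l1 promoter gave 21.2, 38.7 and 31.9 CPM in cluster 0, 148, 123 and 159 CPM in cluster 1 and 41, 13.4 and 10.004 CPM in cluster 5. Cluster 1 exceeded the neuronal mean (log2 difference 1.71, SE 0.22, adjusted p = 6.02e-12), a call that held with each library left out in turn. Cluster 0 lay lower than the mean of the others (log2 difference -1.33, SE 0.24, adjusted p = 1.02e-06), as did cluster 5 (log2 difference -2.49, SE 0.32, adjusted p = 2.65e-13). The call for cluster 0 was lost without the E15.5 library (-1.22), and that for cluster 5 was lost without the E13.5 library (-1.95). The Tcf7l2 promoter gave 63.6, 49.5 and 53 CPM in cluster 0 (log2 difference -1.11, SE 0.20, adjusted p = 1.57e-06) and 215, 156 and 186 CPM in cluster 1 (log2 difference 0.89, SE 0.16, adjusted p = 1.67e-06), of which the first call was lost without the E15.5 library (-1.05) and the second was lost without the E15.5 library (0.84). In cluster 5 the Tcf7l2 promoter was lower (log2 difference -1.35, SE 0.24, adjusted p = 2.68e-07), which was lost without the E13.5 library (-1.38). The Tcf7l2 window was not called there (log2 difference -0.04, SE 0.18, adjusted p = 0.906). The intronic stretches described above held 3.76% and 2.69% of its fragment ends in cluster 5 at E13.5, and 8.97% and 2.56% at E15.5.

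The Tcf7l2 promoter is printed as that of an effector called lower, like Tcf7l1, in both clusters 0 and 5. It is the RefSeq entry nearest the gene start, at chr19:55741560-55741859, plus strand in mm10, has 70% G and C and holds 34 CG dinucleotides, which are in capitals. Neither AGATAA nor its reverse complement occurs in it, and the GATA letters listed above for Tcf7l2 lie in another RefSeq entry of the gene.
Tcf7l2 promoter: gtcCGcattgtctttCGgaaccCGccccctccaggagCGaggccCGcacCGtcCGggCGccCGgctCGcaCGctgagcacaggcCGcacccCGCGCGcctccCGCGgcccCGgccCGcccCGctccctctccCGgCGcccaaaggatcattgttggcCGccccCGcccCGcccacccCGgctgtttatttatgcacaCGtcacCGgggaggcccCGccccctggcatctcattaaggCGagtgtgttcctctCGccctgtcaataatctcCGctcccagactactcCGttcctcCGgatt

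Axin2, a member of the destruction complex that is itself a common target of beta-catenin, was called higher in progenitors and mesenchyme. Its window gave 144, 136 and 166 CPM in cluster 9 (log2 difference 0.94, SE 0.16, adjusted p = 8.30e-05) and 128, 136 and 129 CPM in cluster 1 (log2 difference 0.71, SE 0.16, adjusted p = 0.00459), of which the first call held with each library left out in turn and the second was lost without the E13.5 library (0.63) and the E15.5 library (0.80). Clusters 5 and 8 gave 43.7, 30.3 and 45.1 CPM and 41.9 and 58.5 CPM. Lef1, a TCF/LEF factor of mesenchyme, skin and lymphocytes, had its promoter called higher in cluster 3 with 57.6, 53.2 and 73.7 CPM (log2 difference 1.21, SE 0.31, adjusted p = 0.00483) and lower in cluster 5 with 27.3, 4.29 and 10.004 CPM (log2 difference -2.31, SE 0.54, adjusted p = 1.64e-04), although at E12.5 cluster 5 lay above clusters 0 and 1. The first call for Lef1 was lost without the E13.5 library (1.38) and the E15.5 library (1.15), and the second was lost without the E13.5 library (-0.81). Ctnnb1, which encodes beta-catenin, did not pass over all clusters in its window (adjusted p = 0.551), with 80.3, 72.5 and 79.8 CPM in cluster 0 and 61.7, 69.3 and 67.7 CPM in cluster 5. The promoter at its annotated gene start gave at most 38.4 CPM in any tested sum. Its most accessible bin lay 4.25 kb downstream, between RefSeq start sites 4.18 and 4.36 kb from that start, with 55.4 end CPM in the highest cluster, a median of 47.4 and 26.8 in the lowest. The promoter call for Ctnnb1 in cluster 0 therefore counts few fragments away from the accessible start (log2 difference 1.59, SE 0.53, adjusted p = 0.0282), and it was lost without the E15.5 library (1.21). Tcf7, the T cell member of the TCF family, differed in neither test (adjusted p = 0.14 in windows and 0.090 in promoters).

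All 5 secreted inhibitors differed between clusters in their windows. Sfrp1 and Sfrp2, which bind Wnt ligands outside the cell, were called higher in the neural progenitor-like cluster. The Sfrp1 window gave 86.7, 135 and 112 CPM in cluster 9 (log2 difference 1.12, SE 0.18, adjusted p = 3.15e-05) and the Sfrp2 window 51.7, 62.2 and 46.2 CPM (log2 difference 1.25, SE 0.25, adjusted p = 9.19e-04), and both calls held with each library left out in turn. The ranges overlapped those of cluster 1, which reached 104 CPM for Sfrp1 and 87 CPM for Sfrp2 at E12.5. The Sfrp1 window was lower in clusters 8 and 10, at 27.8 and 37.2 CPM and 34.1 and 30.6 CPM (log2 difference -0.99, SE 0.25, adjusted p = 0.00846 and log2 difference -0.89, SE 0.25, adjusted p = 0.022). The cluster 8 call was lost without the E13.5 library (-0.53), and the cluster 10 call was lost without the E13.5 library (-0.77) and the E15.5 library (-0.98). With a minimum of 5 nuclei per sum, which adds cluster 11 to the mean, both of these differences reversed (0.17 and 0.26). Sfrp2 had 0 window fragments in cluster 5 at E12.5 and E15.5, where 3 fragments would be 7.71 and 8.46 CPM, and 7.30 CPM at E13.5 (log2 difference -2.58, SE 0.39, adjusted p = 2.44e-06). Sfrp2 in cluster 1 gave 87, 51 and 37.9 CPM (log2 difference 1.18, SE 0.24, adjusted p = 0.00217), and both of these Sfrp2 calls held with each library left out in turn.

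The Dkk genes, whose products block the LRP coreceptors, each had their own distribution. Dkk2 was called higher in the mesenchyme-like cluster 1 and in the unnamed cluster 3, with 40.4, 45.9 and 48 CPM at its promoter in cluster 1 (log2 difference 1.76, SE 0.35, adjusted p = 4.16e-05) and 52.8, 66.7 and 48.3 CPM in cluster 3 (log2 difference 1.93, SE 0.35, adjusted p = 1.38e-05). The cluster 3 call held with each library left out in turn, and the cluster 1 call was lost without the E15.5 library (1.26). Dkk1, which acts in head formation, had promoter values in the inhibitory neuron-like cluster 0 above the other clusters at each stage, 31.8, 49.5 and 24 CPM (log2 difference 2.14, SE 0.45, adjusted p = 5.44e-05), and this call was lost without the E13.5 library (2.32). The E12.5 value rests on 3 fragments, and the Dkk1 promoter had at most 3 fragments in 45.8% of sums. The Dkk1 promoter was called lower in cluster 8, at 1.67 and 0 CPM, where 3 fragments would be 5.01 and 8.28 CPM, and that call was lost without the E13.5 library (-4.54) and the E15.5 library (-2.78) and was also lost with DESeq2. Dkk3, a divergent member that does not block the coreceptors in the same way, gave 88.1, 74.5 and 98.1 CPM in its window in cluster 9 and 71.9, 39.4 and 8.46 CPM in cluster 5 (log2 difference -0.68, SE 0.26, adjusted p = 0.0434), and the cluster 5 call was lost without the E13.5 library (-0.70) and the E15.5 library (-0.30).

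Set out by cluster, the erythroid-like cluster 5 held the largest number of called members. In windows 22 of 42 members were lower there, where 15.8% of all genes were, and 2, Fzd5 and Wnt3a, were higher, where 12.7% of all genes were. In promoters 23 were lower, where 18% of all genes were, and 1, Fzd5, was higher, where 16.9% were. The members' median log2 difference was -0.74 in windows and -1.34 in promoters, beside -0.04 and -0.06 over all genes tested. By role the lower promoters were those of 8 of 10 Frizzled receptors, 6 of 19 ligands, 4 of 6 effectors, 4 of 5 inhibitors and 1 of 2 coreceptors. The largest fitted differences were those of Dkk2 (-3.19), Fzd2 (-3.16), Fzd10 (-2.74) and Fzd1 (-2.51), of which the Fzd2 call held with each library left out and the other 3 were lost without the E13.5 library (-5.53, -2.76 and -1.49). Without that library, which holds 166 of the 186 nuclei of cluster 5, 11 members were lower in windows and 7 in promoters. With each library left out in turn, 10 of 22 lower windows and 7 of 23 lower promoters kept their call. The share of all genes called or kept in these fits is not given for this or the other clusters. Such counts therefore describe the members alone.

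The mean of the others used for each cluster below includes cluster 5. Without cluster 5 fewer member promoters were called higher over all clusters, as given in the last section. In the neural progenitor-like cluster 9, 11 members were higher in windows, where 3.86% of all genes were, and 8 in promoters, where 3.63% were, beside 1 lower promoter, Wnt8a, where 0.362% were. Of the 11 windows, 5 belonged to Frizzled receptors (Fzd2, Fzd3, Fzd8, Fzd9 and Fzd10), 3 to ligands (Wnt3, Wnt7a and Wnt7b), 2 to inhibitors (Sfrp1 and Sfrp2) and 1 to an effector (Axin2). Without the E13.5 library 6 members were higher in windows and 2 in promoters, and without the E15.5 library likewise 6 and 2. With each library left out in turn, 5 of 11 windows and 1 of 8 promoters kept their call. The Wnt11 window was lower in cluster 9, with 39.2, 33.2 and 32.7 CPM (log2 difference -0.71, SE 0.21, adjusted p = 0.0353), where 0.922% of all genes were lower, and the call was lost without the E12.5 library (-0.69), the E13.5 library (-0.83) and the E15.5 library (-0.65). Set directly against the mean of the neuronal clusters 0 and 6, cluster 9 was higher at 6 windows, Fzd8, Fzd5, Fzd7, Tcf7l1, Axin2 and Fzd2, where 1.28% of all genes were higher and 0.466% lower. At promoters the same comparison called 7 members higher and Wnt8a lower, where 2.56% and 0.628% of all genes were. Without the E13.5 library or without the E15.5 library edgeR called 0 of these windows, with 10 and 12 members at an unadjusted p under 0.05, and DESeq2 was not run on those subsets. Of the promoters it called 2, Fzd5 and Tcf7l1, without the E13.5 library, and 0 without the E15.5 library, with 8 members at an unadjusted p under 0.05.

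In the mesenchyme-like cluster 1, 9 members were higher in windows and 9 in promoters, where 2.84% and 4.47% of all genes were higher and 0.971% were lower in windows. Wnt5a, Wnt9a, Fzd2, Fzd7, Sfrp2, Dkk2 and Axin2 were higher in both. With each library left out in turn, 3 of 9 windows (Fzd2, Sfrp2 and Wnt5a) and 1 of 9 promoters (Fzd2) kept their call. Against the neuronal mean, cluster 1 was higher at 9 windows and lower at 3, Wnt3, Wnt7a and Wnt7b, where 4.30% and 4.01% of all genes were. At promoters it was higher at 12 members and lower at 1, Wnt7a, where 6.75% and 4.06% of all genes were. Of these, 0 of the 12 windows and 5 of 12 higher promoters (Fzd7, Tcf7l1, Tcf7l2, Wnt5a and Wnt9a) kept their call with each library left out in turn. In cluster 3 Wnt5a, Wnt9a and Dkk2 were also higher in both measures, and the cluster had 5 higher windows and 13 higher promoters, where 3.53% and 5.79% of all genes were higher and 1.94% of promoters were lower. Of the calls in cluster 3, 0 of 5 windows and 1 of 13 promoters (Dkk2) were kept with each library left out in turn. Its members' median promoter difference was 0.71, beside 0.13 over all genes. The part that the low promoter share of cluster 3 plays in this was not tested.

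In the inhibitory neuron-like cluster 0, 6 windows were lower and 2 higher, where 2.63% and 5.03% of all genes were, and 5 promoters were lower and 4 higher, where 5% and 7.59% were. Fzd5, Fzd7, Tcf7l1, Tcf7l2 and Wnt9a were lower in both measures. With each library left out in turn, only the lower Fzd5 promoter kept its call among these 17 calls in cluster 0. In neuron-like cluster 6, 3 windows were higher, Wnt7a, Wnt7b and Fzd2, where 3.18% of all genes were higher and 0.554% lower, and the same 3 were higher at promoters, where 3.94% were. The Fzd5 promoter was lower in cluster 6, where 1.36% of all genes were. All 7 of these cluster 6 calls were lost without the E13.5 library. The fitted window differences then went from 0.72 to 0.75 for Wnt7a, from 0.81 to 0.51 for Wnt7b and from 0.70 to 0.55 for Fzd2. The promoter differences went from 1.23 to 1.09, from 1.07 to 0.08 and from 0.80 to 0.51 for the same genes and from -0.78 to -0.78 for Fzd5, so the Wnt7b promoter fell most. Likewise, without the E15.5 library the 3 windows and the promoters of Wnt7a and Fzd5 were lost. In the mixed cluster 8, 7 windows and 4 promoters were lower, where 3.52% and 1.97% were lower and 4.24% of windows were higher, among them Fzd2 and Sfrp1 in both, and Tcf7l2 was the 1 higher promoter, where 4.61% were. Cluster 7 had 4 higher windows and 3 higher promoters, where 1.27% and 2.34% were. Cluster 10 had 4 higher windows and 5 higher promoters, where 5.51% and 3.36% were, and 1 lower window, Sfrp1, where 0.966% were. Of the calls in clusters 7, 8 and 10, those of the Fzd2 promoter in cluster 8 and the Wnt9a window in cluster 10 were kept with each library left out in turn, and the others were not.

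The genes with the largest called differences in each cluster, beyond those described above, were in windows those of receptors, ligands and the inhibitor Dkk2. Cluster 0 was lower at Fzd5 with 23.2, 33 and 18.5 CPM (log2 difference -1.07, lost without E15.5 (-0.77)), at Fzd7 with 27.8, 31.6 and 31.4 CPM (log2 difference -0.84, lost without E13.5 (-0.82) and E15.5 (-0.85)) and at Wnt9a with 27.8, 42.9 and 31.7 CPM (log2 difference -0.73, lost without E13.5 (-0.89) and E15.5 (-0.63)). Cluster 1 was higher at Fzd2 with 116, 78.9 and 87.6 CPM (log2 difference 1.22, kept with each library left out). Cluster 3 was higher at Wnt5a with 54.6, 77 and 64.9 CPM (log2 difference 1.04, lost without E13.5 (0.96)), at Dkk2 with 108, 92.6 and 71 CPM (log2 difference 0.91, lost without E13.5 (0.91)) and at Wnt9a with 84.4, 87.4 and 75.2 CPM (log2 difference 0.65, lost without E13.5 (0.65) and E15.5 (0.75)). Receptor windows were lower in cluster 5, Fzd2 with 7.71, 8.93 and 5.64 CPM (log2 difference -2.65, kept with each library left out), Fzd10 with 7.71, 2.78 and 2.82 CPM (log2 difference -2.52, lost without E13.5 (-1.76)) and Fzd1 with 5.14, 7.77 and 19.7 CPM (log2 difference -2.06, kept with each library left out). Cluster 6 was higher at Wnt7a with 92.8 and 85.4 CPM and at Fzd2 with 68.2 and 59.9 CPM. Cluster 8 was lower at Fzd2 with 14.7 and 16.5 CPM (log2 difference -1.70, lost without E13.5 (-1.57)) and at Wnt5a with 13.1 and 22.4 CPM (log2 difference -1.20, lost without E13.5 (-0.61)), and cluster 9 was higher at Fzd2 with 79.7, 81.8 and 107 CPM (log2 difference 1.23, kept with each library left out). The Fzd2 window was thus called higher in clusters 1, 6 and 9 and lower in clusters 5 and 8.

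At promoters, cluster 3 was higher at the ligands Wnt2 with 33.6, 44.5 and 20.3 CPM (log2 difference 1.41, lost without E13.5 (0.94) and E15.5 (2.003)) and Wnt6 with 14.4, 38.7 and 35.6 CPM (log2 difference 1.27, lost without E13.5 (1.40) and E15.5 (1.08)). Neither of these promoters passed the edgeR F test over all clusters (adjusted p = 0.234 for Wnt2 and 0.0501 for Wnt6). Cluster 5 was lower at Dkk2 with 0, 2.68 and 0 CPM, from 0, 5 and 0 fragments, and at Fzd10 with 13.7, 5.37 and 0 CPM, from 1, 10 and 0. Cluster 6 was higher at Wnt7b with 87.7 and 37.5 CPM. Cluster 7 was higher at Tcf7l1 with 147 and 146 CPM (log2 difference 1.02, lost without E13.5 (0.90) and E15.5 (1.07)), at Fzd2 with 140.05 and 187 CPM (log2 difference 0.64, lost without E13.5 (0.76) and E15.5 (0.39)) and at Fzd7 with 214 and 229 CPM (log2 difference 0.61, lost without E13.5 (0.80) and E15.5 (0.46)). The inhibitor promoters were lower in cluster 8, Sfrp1 with 6.68 and 13.8 CPM (log2 difference -1.76, lost without E13.5 (-0.99) and E15.5 (-2.43)) and Sfrp2 with 11.7 and 19.3 CPM (log2 difference -1.71, lost without E13.5 (-0.56)), while Sfrp2 was higher in cluster 9 with 96.3, 95.4 and 107 CPM (log2 difference 1.41, lost without E15.5 (1.26)). Both TCF promoters were higher in cluster 10, Tcf7l1 with 119 and 132 CPM (log2 difference 0.75, lost without E13.5 (0.76) and E15.5 (0.73)) and Tcf7l2 with 135 and 195 CPM (log2 difference 0.68, lost without E13.5 (1.01) and E15.5 (0.54)).

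Against the mean of the neuronal clusters, cluster 1 was higher in the Fzd7 window, with 110.3, 77.1 and 82.1 CPM in cluster 1, 27.8, 31.6 and 31.4 CPM in cluster 0 and 55.6 and 41.6 CPM in cluster 6 (log2 difference 1.14, lost without E15.5 (1.10)). The Wnt11 window gave 162, 85.1 and 79.4 CPM in cluster 1, 46.4, 34.6 and 46.8 CPM in cluster 0 and 43.8 and 51 CPM in cluster 6 (log2 difference 1.09, lost without E13.5 (1.09)) and the Wnt9a window 72.5, 82.5 and 83.1 CPM in cluster 1, 27.8, 42.9 and 31.7 CPM in cluster 0 and 35.5 and 49.9 CPM in cluster 6 (log2 difference 1.06, lost without E13.5 (0.999)). The Wnt3 window was lower, with 26.1, 46.6 and 26.8 CPM in cluster 1, 71.1, 71.2 and 92.1 CPM in cluster 0 and 69.6 and 73.8 CPM in cluster 6 (log2 difference -1.10, lost without E15.5 (-0.84)). The Wnt5a promoter was higher, with 108, 59.6 and 59.8 CPM in cluster 1, 10.6, 13.9 and 14.5 CPM in cluster 0 and 19 and 12.51 CPM in cluster 6 (log2 difference 2.11, kept with each library left out). Cluster 9 was higher than the neuronal mean in the windows of Fzd8, with 86.7, 97.5 and 88 CPM in cluster 9, 24.7, 46.2 and 42.1 CPM in cluster 0 and 62.7 and 35.5 CPM in cluster 6 (log2 difference 1.06, lost without E13.5 (1.31) and E15.5 (0.94)), and of Fzd5, with 68.5, 65.6 and 53 CPM in cluster 9, 23.2, 33 and 18.5 CPM in cluster 0 and 38.1 and 38.3 CPM in cluster 6 (log2 difference 1.01, lost without E13.5 (1.08) and E15.5 (0.99)). The Fzd7 window gave 58.7, 67.3 and 79 CPM in cluster 9, 27.8, 31.6 and 31.4 CPM in cluster 0 and 55.6 and 41.6 CPM in cluster 6 (log2 difference 0.84, lost without E13.5 (0.97) and E15.5 (0.64)) and the Tcf7l1 window 320.3, 436 and 326 CPM in cluster 9, 187, 204 and 144 CPM in cluster 0 and 266 and 201 CPM in cluster 6 (log2 difference 0.84, lost without E13.5 (0.82) and E15.5 (0.74)). At promoters the same was called for Tcf7l1, with 184, 74.7 and 122 CPM in cluster 9, 21.2, 38.7 and 31.9 CPM in cluster 0 and 64.3 and 50.05 CPM in cluster 6 (log2 difference 1.34, lost without E15.5 (1.23)), Fzd5, with 193, 118 and 148 CPM in cluster 9, 84.8, 52.6 and 31.2 CPM in cluster 0 and 67.2 and 72.6 CPM in cluster 6 (log2 difference 1.34, lost without E15.5 (1.09)), and Fzd10, with 78.8, 56 and 71.3 CPM in cluster 9, 53, 24.7 and 26.9 CPM in cluster 0 and 20.5 and 22.5 CPM in cluster 6 (log2 difference 1.33, lost without E13.5 (1.35) and E15.5 (1.25)). The lower Wnt8a promoter, at 0 fragments in cluster 9, gave 31.8, 15.46 and 6.54 CPM in cluster 0 and 13.2 and 7.51 CPM in cluster 6.

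**Figure D4:**
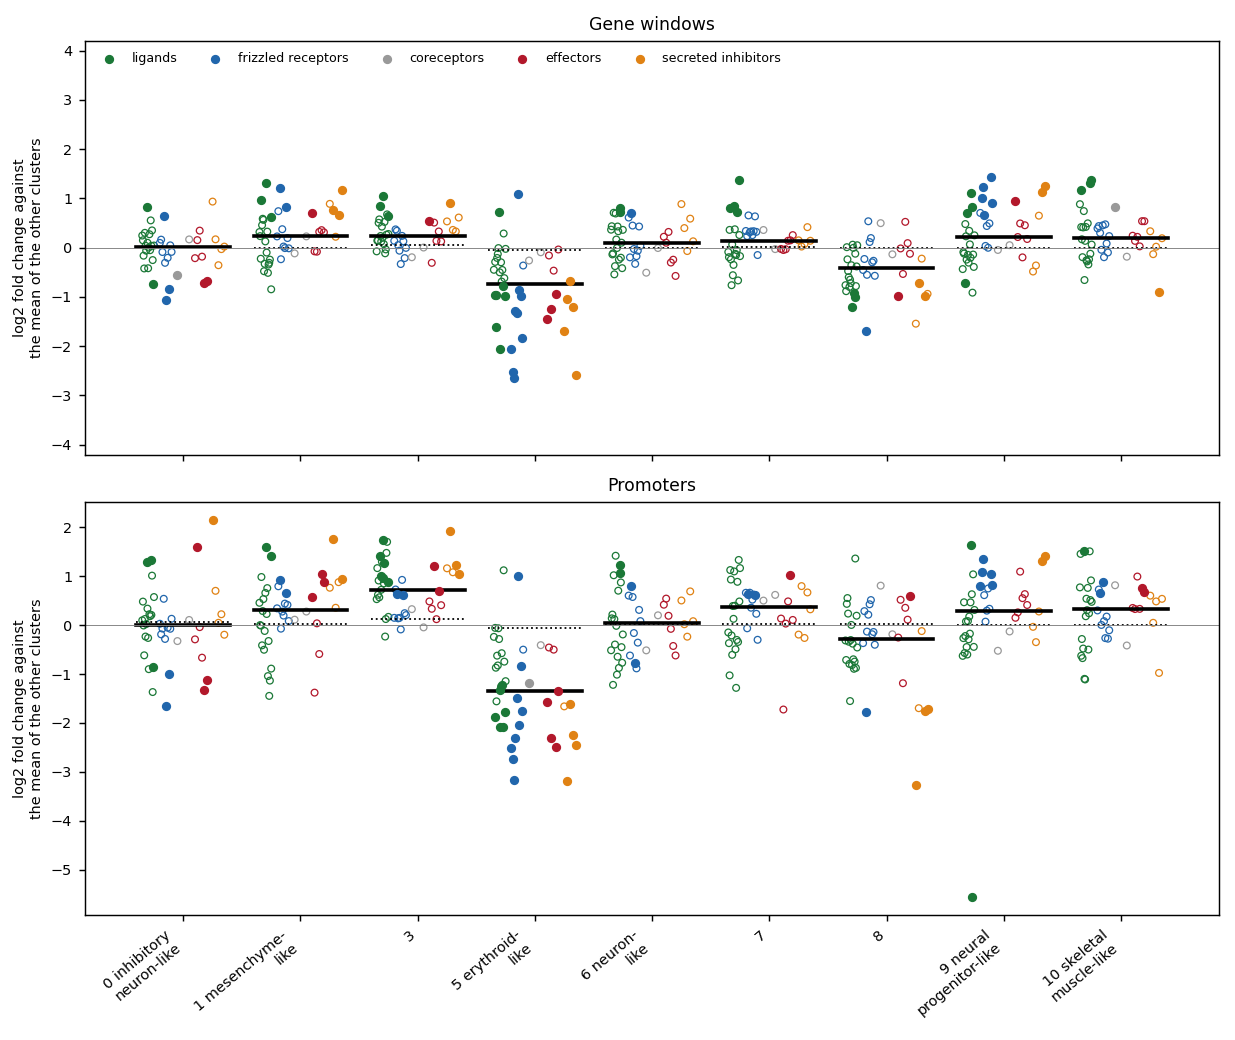
Fitted log2 difference of each of the 42 genes (points) between a cluster and the mean of the other 8 (x axis), for gene windows and promoters, with called genes filled, the members' median as a black bar and the median of all genes dotted. Cluster 5 holds most of the filled points below 0, and its members' medians are -0.74 and -1.34.

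Both measures named the same cluster and direction for 49 pairs of gene and cluster, of 77 pairs called in windows and 81 in promoters. All libraries with a sum pointed the same way in 72 of the 77 window pairs and 74 of the 81 promoter pairs. The pairs were called from these same libraries, so this agreement was largely set by the call and is not replication. The comparisons share their sums, since each cluster enters the mean of the others. The 2 measures also share fragments, because the window includes the promoter. With each library left out in turn, 20 of the 77 window pairs and 12 of the 81 promoter pairs kept their call in all 3 fits. Without the E13.5 library 54 and 57 of them were lost, without the E15.5 library 40 and 50, and without the E12.5 library 7 and 2. Leaving out either later library leaves clusters 6, 7, 8 and 10 with 1 sum each, and 4 residual degrees of freedom in place of 12. That change acts on all genes tested. The share of all called genes that kept their call is not given, here or per cluster. Whether these losses are particular to the members therefore cannot be judged.

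A further 52 genes of the pathway were counted beside the members. In windows 31 of 52 differed between clusters and in promoters 31 of 52, where 37.5% and 44% of all genes tested did. They included 6 of 9 genes of the R-spondin axis in windows and 7 of 9 in promoters, 6 and 4 of 10 other extracellular regulators, 9 and 7 of 11 nuclear cofactors and targets, 9 and 9 of 11 non-canonical receptors and planar polarity genes and 1 and 2 of 2 genes of ligand secretion. Of the 9 genes of the destruction complex and Dishevelled, 2 differed in promoters, Gsk3a and Dvl3, and in windows the smallest adjusted p was 0.12 (Dvl1). In cluster 5 the promoters of 4 of these 9, Gsk3a, Dvl1, Dvl3 and Axin1, were higher (log2 difference 0.57, SE 0.13, adjusted p = 9.38e-05 for Gsk3a), with log2 differences of 0.55 for Dvl1, 0.64 for Dvl3 and 0.51 for Axin1. All 4 were lost without the E13.5 library (in the same order of genes 0.21, 0.48, 0.67 and 0.84), and Axin1 also without the E12.5 library (0.27). Over all 52 genes 7 promoters were higher and 19 lower, where 16.9% and 18% of all genes were. Ror1 and Ror2, receptors for Wnt5a, had windows called higher in cluster 1 (log2 difference 1.07, SE 0.15, adjusted p = 1.44e-05 and log2 difference 0.94, SE 0.15, adjusted p = 9.56e-05) and lower in cluster 5, the same clusters as Wnt5a itself, and these 4 calls held with each library left out in turn. Rnf43, a ligase that removes Frizzled receptors from the surface, had a window called higher in cluster 5 (log2 difference 1.43, SE 0.18, adjusted p = 1.37e-07), which held with each library left out in turn.

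Changes between stages could be described but not tested, since each stage is 1 library. The ratio of E15.5 to E13.5 in windows was called past the fold when it was over 1.5 or under its inverse. In cluster 0, 2 of 42 members passed upward and 1 downward, where 4.43% and 5.05% of all genes did. In cluster 1, where 3.33% of all genes passed upward, 6 of 42 members passed downward, where 6.86% did, and in cluster 3, 1 upward and 2 downward, where 4.44% and 5.52% did. In cluster 5, with 10 nuclei at E15.5, 4 of 39 passed upward and 17 downward, where 12.7% and 28.1% did. Upward and downward counts were 3 and 2 in cluster 6 (6.18% and 7% of all genes), 6 and 6 in cluster 7 (14.7% and 12.4%), 6 and 2 in cluster 8 (8.80% and 13%), 7 and 3 in cluster 9 (10.3% and 13.4%) and 5 and 6 in cluster 10 (8.69% and 12.9%). Intervals on these ratios are exact for Poisson counts and cover counting error only.

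In cluster 0 Fzd5 had 33 and 18.5 CPM (ratio 0.56, 95% interval 0.433 to 0.726) at E13.5 and E15.5, and its promoter gave a ratio of 0.594 (0.37 to 0.96). As a mean over nuclei the Fzd5 ratio was 0.751, closer to 1. Also in cluster 0, Wnt10b had 14.8 and 24.2 CPM (ratio 1.63, 95% interval 1.19 to 2.26) and Fzd10 12.4 and 19.5 CPM (ratio 1.58, 95% interval 1.12 to 2.26). The promoter ratio of Wnt10b in cluster 0 pointed downward instead. In cluster 1 the members that passed were lower at E15.5, among them Wnt9b with 17.4 and 8.68 CPM (ratio 0.498, 95% interval 0.323 to 0.752) and Wnt8b with 20.6 and 11 CPM (ratio 0.536, 95% interval 0.365 to 0.774). In the same cluster Wnt10a had 46.4 and 25.2 CPM (ratio 0.544, 95% interval 0.424 to 0.692) and Dkk1 13.8 and 7.1 CPM (ratio 0.514, 95% interval 0.317 to 0.813). Wnt1, the ligand of the midbrain boundary and dorsal neural tube, had 19.3 and 5.68 CPM (ratio 0.294, 95% interval 0.164 to 0.494) in cluster 3 and 12 and 25 CPM (ratio 2.08, 95% interval 1.33 to 3.24) in cluster 6, so it passed the fold downward in one cluster and upward in the other. In cluster 3 Fzd6 had 21.6 and 32.7 CPM (ratio 1.51, 95% interval 1.16 to 1.96) and Wnt16 19.8 and 13.1 CPM (ratio 0.663, 95% interval 0.45 to 0.954). In cluster 6 Fzd6 had 29.5 and 15 CPM (ratio 0.508, 95% interval 0.319 to 0.782), Fzd8 62.7 and 35.5 CPM (ratio 0.566, 95% interval 0.422 to 0.751) and Wnt10b 15.47 and 25 CPM (ratio 1.61, 95% interval 1.06 to 2.44), so in windows Fzd6 also passed in opposite directions in 2 clusters. The promoter ratio of Fzd6 in cluster 6 pointed upward instead. In cluster 7 the inhibitors Sfrp1 and Sfrp2 were both lower at E15.5, Sfrp1 with 114 and 45.4 CPM (ratio 0.398, 95% interval 0.317 to 0.50) and Sfrp2 with 41.3 and 19.3 CPM (ratio 0.468, 95% interval 0.324 to 0.677), while Fzd1 had 27.8 and 51.8 CPM (ratio 1.86, 95% interval 1.31 to 2.71). Wnt2b had 36.3 and 19.9 CPM (ratio 0.548, 95% interval 0.375 to 0.804) there, while its promoter ratio in that cluster pointed upward. Since cluster 7 is a mixture, a change in the makeup of its nuclei and a change within them cannot be told apart.

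In cluster 5 the E15.5 sum is thin. Wnt8b had 15.54 CPM at E13.5 and 0 fragments at E15.5, where 3 fragments would be 8.46 CPM. Wnt9b had 23.4 and 2.82 CPM (ratio 0.12, 95% interval 0.00304 to 0.679), Dkk3 39.4 and 8.46 CPM (ratio 0.215, 95% interval 0.0441 to 0.633) and Fzd7 34 and 14.1 CPM (ratio 0.415, 95% interval 0.134 to 0.98), with 1, 3 and 5 fragments at E15.5. In cluster 8 Fzd6 had 20.9 and 40.8 CPM (ratio 1.95, 95% interval 1.37 to 2.76) and Fzd3 52.2 and 27.8 CPM (ratio 0.532, 95% interval 0.376 to 0.739). Both ligands Wnt3a and Wnt5a were higher at E15.5 there, with 21.3 and 36.6 CPM (ratio 1.72, 95% interval 1.2 to 2.47) and 13.1 and 22.4 CPM (ratio 1.71, 95% interval 1.07 to 2.72). In cluster 9 Wnt9b, a ligand of kidney and face, had 12.4 and 39.5 CPM (ratio 3.2, 95% interval 1.9 to 5.42), from 29 and 35 fragments. Also there, Wnt2b had 27.3 and 12.4 CPM (ratio 0.455, 95% interval 0.216 to 0.87), Wnt2 17.9 and 32.7 CPM (ratio 1.83, 95% interval 1.1 to 3.01) and Wnt6 13.6 and 24.8 CPM (ratio 1.82, 95% interval 1.01 to 3.23). In cluster 10 Wnt2 had 18.2 and 50.003 CPM (ratio 2.75, 95% interval 1.88 to 4.03), Wnt2b 25.5 and 55.6 CPM (ratio 2.19, 95% interval 1.56 to 3.07) and Wnt10a 91.9 and 40.3 CPM (ratio 0.439, 95% interval 0.318 to 0.595). Wnt8b was lower there at E15.5, with 22.5 and 7.26 CPM (ratio 0.323, 95% interval 0.142 to 0.65), from 68 and 9 fragments. At E13.5 and E15.5 the cluster with the highest window CPM was the same for 19 of the 42 genes, 7 of 19 ligands, 5 of 10 Frizzled receptors, 1 of 2 coreceptors, 3 of 6 effectors and 3 of 5 inhibitors. The share over all genes is not given, so whether these counts are high or low for the members cannot be judged.

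**Figure D5:**
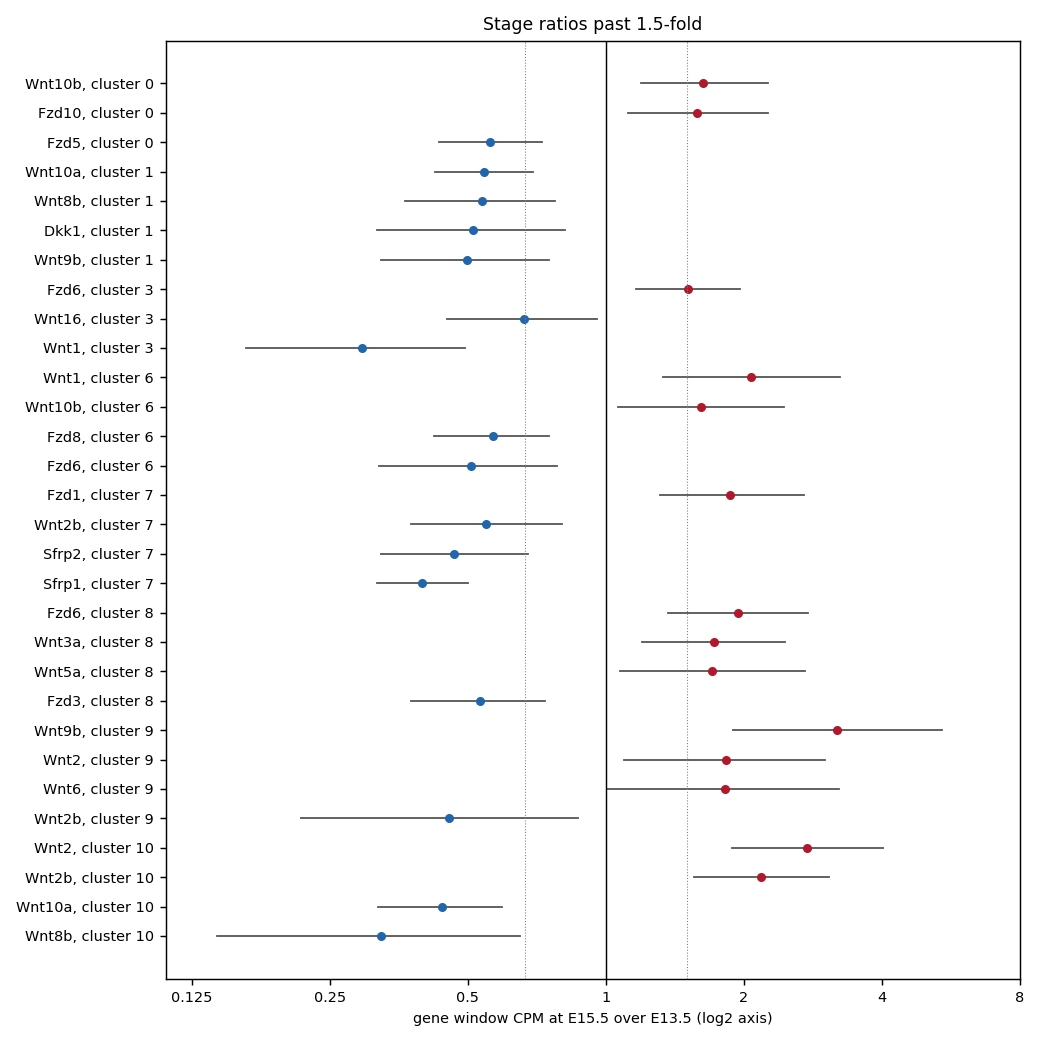
Ratio of window CPM at E15.5 over E13.5 (log2-scaled x axis) for the genes named by rule in each cluster other than cluster 5, with exact 95% Poisson intervals and dotted lines at 1.5-fold either way. Wnt9b in cluster 9 (3.20) and Wnt1 in cluster 3 (0.294) lie farthest from 1, and no point has a replicate.

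Of the ligand genes, 8 lie as neighbouring pairs with no other protein-coding gene between them. Wnt3a and Wnt9a are 16.2 kb apart on chromosome 11, Wnt3 and Wnt9b 24.3 kb apart on chromosome 11, Wnt1 and Wnt10b 11.7 kb apart on chromosome 15 and Wnt6 and Wnt10a 6.19 kb apart on chromosome 1. Wnt3a was higher in cluster 5, where Wnt9a was lower (log2 difference -0.99, SE 0.21, adjusted p = 3.43e-04), a call that held with each library left out in turn, and Wnt9a was higher in clusters 1, 3 and 10. Wnt3 was higher in clusters 0 and 9 and Wnt9b passed no test over all clusters (adjusted p = 0.404). Wnt10a was higher in cluster 10, and its neighbour Wnt6 did not pass over all clusters in windows (adjusted p = 0.158). Wnt5b did not pass over all clusters in windows (adjusted p = 0.292), and its most accessible bin, 65.1 kb from the gene start, lies inside the window of Fbxl14.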

How the data were processed

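Single-nucleus ATAC-seq libraries (10x Genomics) of embryos at E12.5, E13.5 and, last, E15.5, 1 per stage, were analyzed from nuclei sorted out of 3 to 5 frozen sections. The authors aligned reads to mm10 with Cell Ranger ATAC 2.0.0 and clustered nuclei with Signac 1.6.0 and Seurat 4.1.0, and deposited fragment lists and a table of nuclei with 24 columns, of which 20 were not used. The deposited fragments carry a read-pair count each, and every unique fragment was taken as 1. Nuclei with a cluster other than 2 and 4 entered. Fragments overlapping each window or promoter of protein-coding genes (GENCODE vM21, spans of at most 500 kb) were summed per cluster and library, kept for tests at 10 or more nuclei in at least 2 libraries, and genes under 50 fragments in total were left out. Sums were tested with edgeR 4.0.16 in R 4.3.3 (quasi-likelihood, TMM, library plus cluster as terms, Benjamini-Hochberg over all genes tested) and, as an alternative, DESeq2 1.42.0. Scripts used Python 3.11.15, numpy 2.4.6, pandas 2.3.3 and scipy 1.17.1, and the fitting code was tested on simulated data. Named genes were, per role, up to 4 with the smallest p in windows, per cluster up to 4 called with the largest difference, per cluster up to 4 past a stage ratio of 1.5 whose interval left out 1, and genes thin in most sums. Further members and the intronic stretches were described after their values were seen. The members and lists were chosen with earlier results of these data known. Intervals and limits from 3 fragments cover counting error only. Barcodes that shared at least 10% of their fragments were treated as linked, and 1 per group was kept in an alternative. The table of nuclei was taken as deposited and doublets were not called again.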

Additional observations from a re-analysis of the deposited data

Results flagged for a closer look

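Fragments in the windows of the 42 genes were also present in barcodes that no comparison used. Nuclei of clusters 2 and 4 held 3.03%, 1.66% and 1.62% of the members' fragments in order of stage, and barcodes outside the table of nuclei held 7.63%, 20.2% and 21.3%. Of 95 called differences of members in windows, 5 had libraries that did not all point the same way, all in cluster 5 (Wnt10a, Lef1, Wnt16, Dkk3 and Wnt3a). Of 102 in promoters, 10 did (Wnt9a in cluster 0, Axin2 in cluster 1, Tcf7l1 in cluster 3, Lef1, Sfrp1 and Lrp5 in cluster 5, Wnt7b in cluster 6, and Sfrp2, Dkk2 and Fzd10 in cluster 1 against clusters 0 and 6). The difference between libraries was not tested.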

How the results depend on the processing

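No paired analysis was possible because each stage is 1 library with 1 replicate number, and the library itself was already a term of the fit. Of the 42 members, 30 differed in windows and 15 to 32 with 1 library left out, and 27 differed in promoters and 10 to 29 with 1 library left out. The shares of all genes under the altered settings are not given here, so these counts describe the members alone. Pairs of member and cluster called higher in windows numbered 40, with 85 at a minimum of 5 nuclei per sum and 11 to 51 with 1 library left out. Pairs called lower in windows numbered 37, with 23 at a minimum of 20 nuclei, 12 at a minimum of 5, 20 without cluster 5 and 12 to 38 with 1 library left out. In promoters the higher pairs numbered 47, with 29 at a minimum of 20 nuclei, 86 at a minimum of 5, 27 without cluster 5 and 11 to 56 with 1 library left out. The lower pairs in promoters numbered 34, with 18, 11 and 18 under the same settings in that order, and 12 to 34 with 1 library left out. A minimum of 5 nuclei adds cluster 11, so the comparison then includes 10 clusters. Cluster 1 against clusters 0 and 6 called 12 windows, and 2 to 10 with 1 library left out. Cluster 9 against clusters 0 and 6 called 6, with 10 without cluster 5 and 0 to 8 with 1 library left out. Stage ratios over 1.5 numbered 34 and those under the inverse 45, and in promoters 58 and 99. For windows the shares of all genes stand beside the counts per cluster above, and for promoters they are not given. At a minimum of 5 nuclei the difference of the Wnt9a window in cluster 0 reversed to 0.39, that of Sfrp1 in cluster 8 to 0.17 and that of Sfrp1 in cluster 10 to 0.26. In promoters the stage ratio reversed for Wnt10b in cluster 0 (0.822), Fzd6 in cluster 6 (1.71) and Wnt2b in cluster 7 (1.73). The cause of these changes was not tested. A fit with a library left out also rests on fewer sums. Of the named differences under all settings, 914 kept direction and call, 159 kept direction but lost the call and 3 reversed. The settings without cluster 3 and without cluster 5 were chosen after seeing the data. Depth limits the sums of clusters 1 and 5 at E12.5 and of cluster 5 at E15.5, each with 10 nuclei, the most.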
